A study of Rattus norvegicus with 6 samples.

Results

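Nuclear receptors are transcription factors that bind DNA through zinc fingers and, in most family members, change their activity when a small lipophilic molecule such as a steroid, bile acid, fatty acid, retinoid or drug enters their ligand pocket. Many work as heterodimers with a retinoid X receptor (RXR) on repeats of the hexamer AGGTCA, and they recruit coactivators or corepressors. In the liver they control drug metabolism, bile acid synthesis, fatty acid oxidation, glucose output and the circadian programme of hepatocytes. The 38 genes described here were listed by symbol as members of the family, with no threshold on their values in these rats. Earlier results of these data were known when the list was chosen. Of the 38, 34 had at least 1 probe matched to their symbol, of 15284 named genes with a probe on the array. The other 4, Hnf4g, Rarb, Rora and Nr6a1, had no matched probe and were not analysed here. Of the 34, 31 were tested, because a probe of theirs was well above background in all 3 rats given NTA or in all 3 given vehicle.

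Livers came from 3 rats dosed at 1000 mg/kg/day with NTA, nitrilotriacetic acid trisodium monohydrate, a metal-ion chelator, and from 3 rats given vehicle. All were male Sprague-Dawley (Crl:CD(SD)) rats bought at 5 weeks of age and kept on a basal diet, and 1 Cy3-labelled RNA sample per rat was hybridised to a one-colour Agilent array. The labels name purified water as the vehicle in the sample fields and corn oil in the protocol, and give both 28 days and 9 weeks as the duration, so neither point is settled. Whole liver was used, so fewer cells of a type and less RNA per cell cannot be told apart. Values are log2 processed signals with the 75th percentile of that array subtracted, a difference is the NTA mean minus the vehicle mean on that scale, and levels of different probes are not compared with each other.

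The share of probes well above background was 62.4% to 64.5%. All 3 NTA arrays lay on 1 slide with no vehicle array, and an effect of the slide cannot be told apart from one of the treatment. Vehicle replicate 3 had a slide and scan day of its own, and its local background had a median of 40, where the remaining arrays had 54 to 61. The hepatocyte marker list (10 of 10 genes well above background on all 6 arrays) was at a mean level of 8.23 to 8.43 in NTA livers and 8.41 to 8.52 in vehicle livers. The liver endothelium list was at 1.81 to 1.97 in NTA livers and 1.36 to 1.59 in vehicle livers over 9 tested genes. The Kupffer cell and macrophage list was at 2.38 to 3.29 in NTA livers and 1.80 to 2.65 in vehicle livers, also over 9 genes, with vehicle replicate 3 the lowest. The adipocyte list was at −0.71 to −0.68 in NTA livers and −1.10 to −1.07 in vehicle livers over 5 of 9 genes tested, with Adipoq and Lep not tested and 2 of the 5 above 0. Its Fabp4, a fatty acid carrier, had a difference of 2.58 (limma adjusted p = 0.069), and the 4 remaining genes lay between −0.29 and 0.02. The T, B and NK cell list was at −1.32 to −0.91 in NTA livers and −1.72 to −1.30 in vehicle livers. Of its tested genes 6 of 6 had a difference above 0, against 43.9% of all features. The stellate cell and biliary lists overlapped between the groups, as did the hepatocyte list, the Kupffer cell and macrophage list and the T, B and NK cell list. The part of these cell type markers in the results below was not tested.

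Promoter sequence is shown for the receptor with the largest positive difference (Nr1i3), for the receptor that varied most between rats (Nr0b2) and for the REV-ERB pair of the clock (Nr1d1 and Nr1d2). Each stretch holds the 250 bases before an annotated start, from RefSeq on the rat build GRCr8, 5′ to 3′ on the strand of the gene. Capitals mark any match, on either strand, to the hexamer AGGTCA, which reads TGACCT on the other strand, to the E-box CACGTG, which reads the same on both strands, or to CAAGGNCA, which reads TGNCCTTG on the other strand, an extended element of the kind that LRH-1 binds and one that overlaps the hexamer where N is T.
Nr1i3, chr13:86165170-86165419, plus strand: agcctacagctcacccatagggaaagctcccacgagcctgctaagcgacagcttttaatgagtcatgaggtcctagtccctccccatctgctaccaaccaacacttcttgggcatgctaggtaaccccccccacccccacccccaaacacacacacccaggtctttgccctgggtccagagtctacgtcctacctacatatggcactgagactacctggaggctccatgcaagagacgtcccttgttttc
Nr0b2, chr5:151062910-151063159, plus strand: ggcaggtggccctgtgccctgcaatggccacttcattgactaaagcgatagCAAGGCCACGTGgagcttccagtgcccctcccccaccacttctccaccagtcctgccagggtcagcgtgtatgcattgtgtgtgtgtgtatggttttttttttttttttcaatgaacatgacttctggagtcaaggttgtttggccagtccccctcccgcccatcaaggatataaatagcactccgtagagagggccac
Nr1d1, chr10:84229455-84229704, minus strand: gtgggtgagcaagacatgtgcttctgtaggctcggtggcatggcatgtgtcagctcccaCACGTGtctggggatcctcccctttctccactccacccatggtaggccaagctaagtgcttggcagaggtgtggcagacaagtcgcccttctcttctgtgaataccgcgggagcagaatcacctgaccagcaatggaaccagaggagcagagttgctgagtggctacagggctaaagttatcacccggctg
Nr1d2, chr15:9954784-9955033, plus strand: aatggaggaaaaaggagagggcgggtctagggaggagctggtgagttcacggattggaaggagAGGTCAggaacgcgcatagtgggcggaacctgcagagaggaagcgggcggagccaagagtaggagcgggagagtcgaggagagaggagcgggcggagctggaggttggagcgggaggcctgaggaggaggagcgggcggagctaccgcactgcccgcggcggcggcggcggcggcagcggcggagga
The Nr1i3 stretch held no match. In Nr0b2 a CAAGGNCA match whose first base is at −199 from the start runs into an E-box whose first base is at −193. Nr1d1 has a second annotated start, whose 250 bases held no match, and the start shown has an E-box at −191. Nr1d2 had the hexamer at −187. Of 33469 promoter windows of this length, 14.1% held the hexamer, 5.59% the E-box and 5.58% CAAGGNCA. Among the 32 listed receptor genes with a window, 3 held the hexamer (Nr1d2, Nr5a2 and Rarg), 2 the E-box and 1 CAAGGNCA. These are matches of letters and show no binding.

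None of the nuclear receptor transcripts passed the test between NTA and vehicle livers. In limma with Benjamini-Hochberg adjustment over all 30353 features tested, 0 of the 31 receptors passed an adjusted p under 0.05, against 0.0297% of all features (9 of 30353, all higher with NTA). At an unadjusted p under 0.05 there was 1 receptor, Nr1i3, which was higher with NTA, or 3.23% of the 31, against 7.57% of all features (3.66% higher and 3.91% lower). Adjusted p values of the receptors ran from 0.62 to 0.99. Of the 31, 16 differences lay above 0 and 15 below, with a median of 0.01, and over all features 43.9% lay above 0 with a median of −0.03. For 0 of the 31 receptors did the 3 NTA rats and the 3 vehicle rats separate without overlap, whereas the groups did not overlap for 13.6% of all features (5.57% higher and 8.03% lower). The median within-group SD was 0.23 for the receptors and 0.19 for all features.

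How large a difference these arrays could have missed varied between receptors. For 25 of the 31 the 95% interval of the difference lay inside 1 log2 unit on either side of 0 (a 2-fold change), against 86.9% of all features, and for 13 it lay inside 0.5 (1.41-fold). The 6 whose interval reached past 2-fold in at least 1 direction were Nr1i3, Vdr, Nr0b2, Nr1d2, Esr1 and Nr4a1. The narrowest intervals included those of the liver X receptors Nr1h2, from −0.27 to 0.22, and Nr1h3, from −0.35 to 0.18, and that of Nr2c2, from −0.14 to 0.35.

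**Figure D1:**
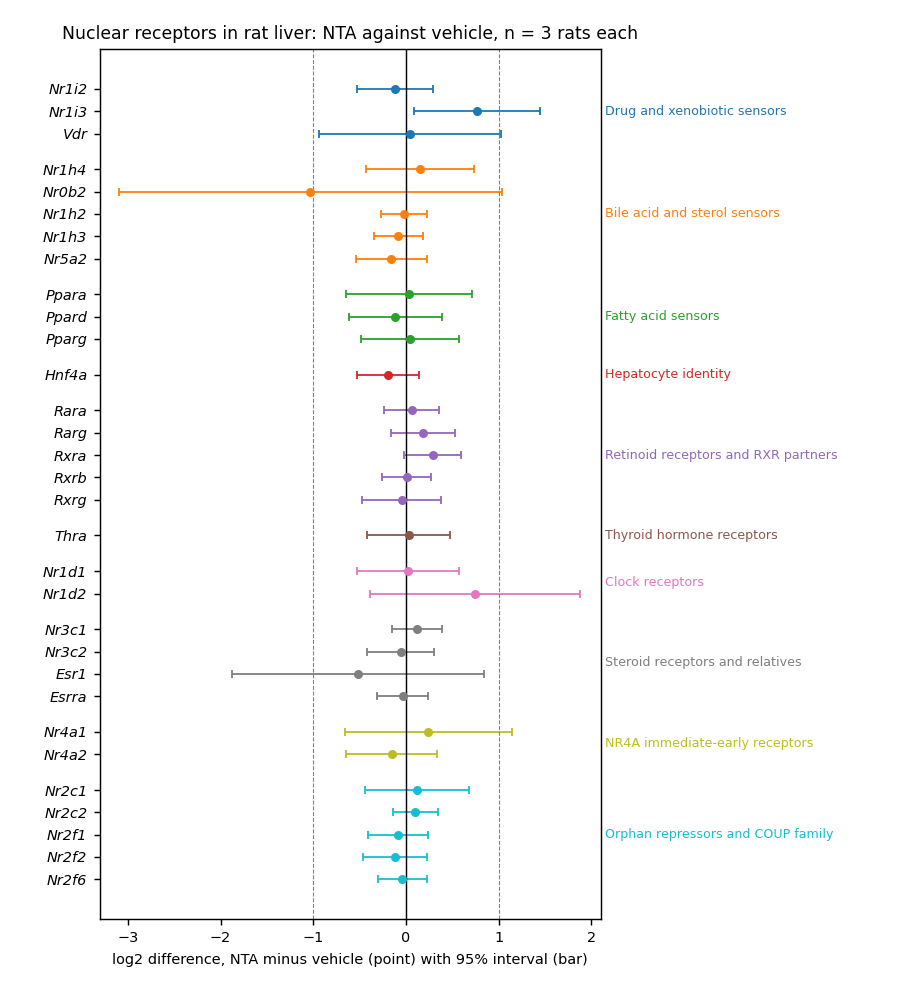
Log2 difference, NTA minus vehicle, for the 31 tested nuclear receptors (points) with 95% intervals from limma (bars), grouped by role, n = 3 rats per group. Dashed lines mark a 2-fold difference. The interval of Nr1i3, from 0.08 to 1.45, is the one that does not cross 0, before any adjustment for the number of tests.

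Among the drug and xenobiotic sensors, Nr1i3 encodes the constitutive androstane receptor (CAR), which switches on Cyp2b and other drug-handling genes after drug exposure. Its brightest probe was at 3.16, 3.06 and 3.56 in the NTA rats, against 2.07, 2.32 and 3.10 in the vehicle rats. Vehicle replicate 3 lay between NTA replicates 1 and 2, and the other vehicle rats were below all NTA rats. The difference was 0.76 (SE 0.28, 1.70-fold; limma, unadjusted p = 0.033, Benjamini-Hochberg adjusted p = 0.62), so it did not pass. It was 0.55 without vehicle replicate 1 and 1.06 without vehicle replicate 3, and its adjusted p ran from 0.44 to 0.82 over the alternatives.

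The 3 other probes matched to Nr1i3 separated the groups. Probe A_64_P109496 was at 2.12, 1.85 and 2.26 in NTA livers and 0.79, 0.58 and 1.80 in vehicle livers, a difference of 1.02 (SE 0.32). The other two gave 0.92 (SE 0.30) and 0.90 (SE 0.27). On each of them the highest vehicle rat was again replicate 3. In a fit with every probe as its own feature, an alternative chosen after seeing the data, their limma adjusted p was 0.56 to 0.58 over 38168 probes. Of the 57 receptor probes in that fit 0 passed, against 0.0341% of all probes. The groups were separated by 4 of the 57, against 13.4% of all probes, and 4 had an unadjusted p under 0.05, against 7.38%. The 4 probes that separated were these 3 of Nr1i3 and 1 of Nr2f6.

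**Figure D2:**
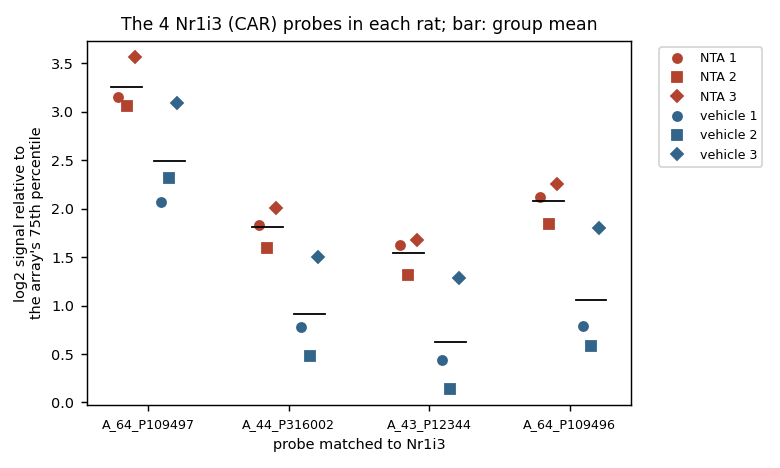
Values of the 4 Nr1i3 probes in each rat on the log2 scale relative to the array's 75th percentile, with NTA rats (red) left of vehicle rats (blue) at each probe and bars at the group means. The brightest probe, at the left, is the one on which the groups overlap, through vehicle replicate 3 at 3.10 and NTA replicate 2 at 3.06.

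Nr1i2, the pregnane X receptor (PXR) that senses steroids and drugs and drives Cyp3a genes, was at 5.80, 5.90 and 6.08 in NTA rats and 5.71, 6.26 and 6.15 in vehicle rats. The groups overlapped fully, with a difference of −0.12 (SE 0.17, 95% interval −0.53 to 0.30), and its second probe gave −0.07. Vdr, the vitamin D receptor, which hepatocytes express little of, was near the limit of detection: it was well above background in 3 of 3 NTA rats and 2 of 3 vehicle rats, and its other probe on no array. Its difference was 0.05 (SE 0.41).

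Genes listed here as targets of CAR and PXR were mostly above 0, and none passed. Of 19 tested, 13 were above 0 and 6 below, with a median of 0.18. Over all features 43.9% lay above 0, with a median of −0.03. Of the 19, 0 passed limma over all features, while 1 had an unadjusted p under 0.05, against 7.57% of all features. That gene was the conjugate exporter Abcc3, at −1.22, −1.34 and −2.66 in NTA livers against −2.95, −3.09 and −3.26 in vehicle livers (difference 1.36, SE 0.38; limma adjusted p = 0.53). Its other probes, well above background in 3 of 3 NTA rats but in only 2 and 1 of the 3 vehicle rats, gave 1.18 and 1.50, and with normexp background correction it was at 0.85. The classical targets Cyp2b1 and Cyp3a23-3a1, named here after their values were seen, had differences of 0.05 (SE 0.14) and −0.50 (SE 0.31). That of Cyp3a23-3a1 was −0.83 without NTA replicate 1 and −0.28 without NTA replicate 3. The other Cyp2b and Cyp3a genes of the list were Cyp2b2 at 0.35 (SE 0.34), Cyp3a2 at 0.30 (SE 0.17) and Cyp3a9 at −0.17 (SE 0.23). With 1 array left out, Cyp2b2 ran from 0.139 to 0.715, Cyp3a2 from 0.149 to 0.425 and Cyp3a9 from −0.407 to 0.041. The list's median ran from 0.07 to 0.24 when 1 array was left out.

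The bile acid and sterol sensors held the receptor with the widest spread. Nr0b2, the small heterodimer partner (SHP), is an atypical receptor without a DNA-binding domain that farnesoid X receptor (FXR) induces and that represses bile acid synthesis. It was at 3.99, 4.77 and 6.45 in NTA rats and at 4.48, 7.09 and 6.75 in vehicle rats. The lowest and highest rat differed 5.51-fold within the NTA group and 6.10-fold within the vehicle group. NTA replicate 3 was close to the high vehicle rats and vehicle replicate 1 was close to the low NTA rats. The difference was −1.03 (SE 0.86, 95% interval −3.10 to 1.03; limma adjusted p = 0.82). It was −1.84 without vehicle replicate 1 and −0.49 without NTA replicate 1.

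Cyp7a1, whose product catalyses the rate-limiting step from cholesterol to bile acids and which is named here after its values were seen, also varied widely. It was at −2.47, −1.84 and 0.79 in NTA rats and at −1.25, 0.52 and −0.91 in vehicle rats. Within each group the rat with the lowest Nr0b2 also had the lowest Cyp7a1, and the rat with the highest Nr0b2 the highest Cyp7a1. Cyp8b1, also among the listed FXR targets and bile acid genes, did not share this order. It was at 5.54, 4.84 and 5.44 in NTA rats and at 5.96, 4.36 and 5.17 in vehicle rats. In each group the rat with the lowest Nr0b2 had the highest Cyp8b1. The difference of Cyp7a1 was −0.62 (SE 0.89). It was −1.61 without NTA replicate 3 and 0.025 without NTA replicate 1.

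Nr1h4, which encodes FXR, the bile acid receptor itself, was far steadier than Nr0b2. Its values were 5.20, 5.52 and 5.39 in NTA livers and 5.25, 4.74 and 5.67 in vehicle livers. Vehicle replicate 2, with the lowest Nr1h4, had the highest Nr0b2 of all 6 rats. Vehicle replicate 3, with the highest Nr1h4, was also high in Nr0b2, at 6.75. The difference of Nr1h4 was 0.15 (SE 0.24), and its other probes gave 0.11 and 0.05. Nr5a2, the liver receptor homolog LRH-1 that acts with FXR and SHP on bile acid genes, had a difference of −0.16 (SE 0.16), with −0.26 and −0.28 from its other probes and a range from −0.27 to −0.048 with 1 array left out.

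Of 13 tested FXR targets and bile acid genes, 6 were above 0 and 7 below, with a median of −0.04. In limma 0 passed, and 2 had an unadjusted p under 0.05, both lower. These were the proteoglycan Sdc1 at −0.49 (SE 0.15) and the lipoprotein lipase cofactor Apoc2 at −0.25 (SE 0.10), with adjusted p of 0.55 and 0.66. Over all features 43.9% lay above 0, and 7.57% had an unadjusted p under 0.05 (3.91% lower).

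The liver X receptors, which sense oxysterols, were among the steadiest receptors. Nr1h3 (LXR alpha) was at 5.41, 5.26 and 5.21 in NTA livers against 5.48, 5.32 and 5.32 in vehicle livers. The groups overlapped, and the difference was −0.08 (SE 0.11). Nr1h2 (LXR beta) differed by −0.02 (SE 0.10). Of 13 tested LXR targets 6 were above 0, against 43.9% of all features, and their median was −0.04. Again 0 passed in limma, and 2 had an unadjusted p under 0.05, against 7.57% of all features. These were Mylip, the ubiquitin ligase that degrades the LDL receptor, at 0.46 (SE 0.15), and the sterol transporter Abcg1 at 0.52 (SE 0.22; 0.34 without vehicle replicate 3), with adjusted p of 0.57 and 0.66. The second probe of Mylip was well above background in 0 of 3 vehicle rats.

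**Figure D3:**
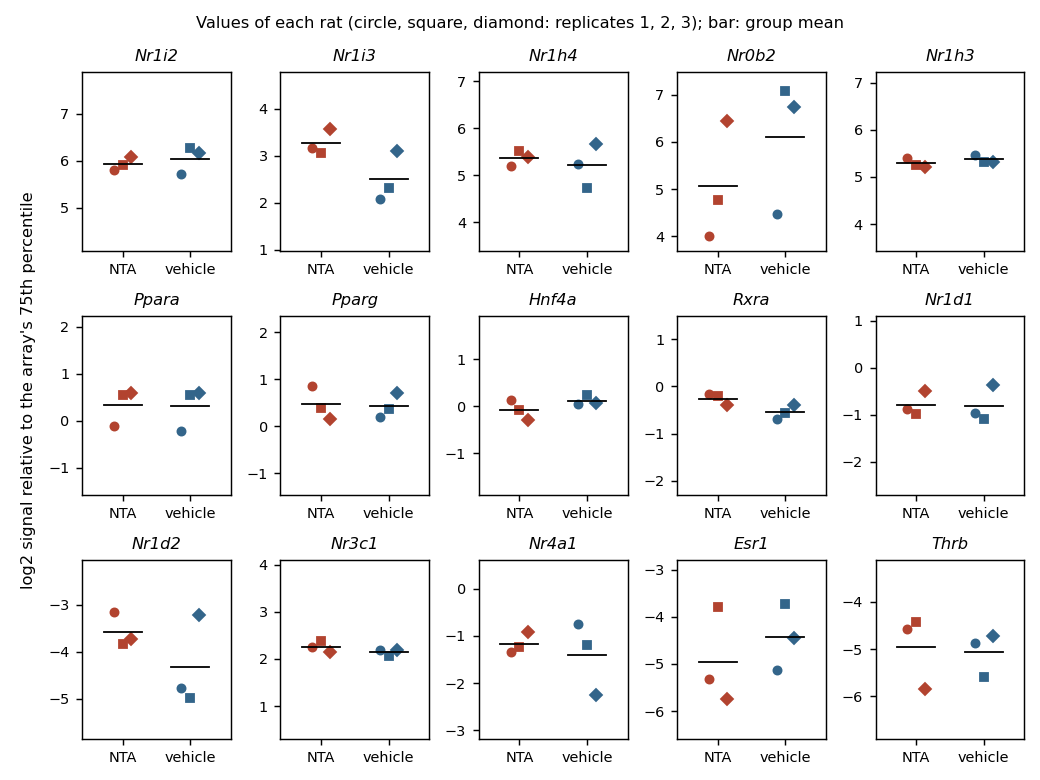
Values of each rat for 15 nuclear receptors on the log2 scale relative to the array's 75th percentile, with NTA (red) left of vehicle (blue), circles, squares and diamonds for replicates 1, 2 and 3, and bars at group means. All panels span the same number of log2 units, so the wide scatter of Nr0b2 and the narrow scatter of Nr1h3 and Nr3c1 can be compared directly.

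The peroxisome proliferator-activated receptors sense fatty acids. Ppara, the master regulator of hepatic fatty acid oxidation, was at −0.10, 0.55 and 0.60 in NTA rats and −0.21, 0.55 and 0.59 in vehicle rats. Replicate 1 was the low rat in both groups and the remaining rats were nearly alike. The difference was 0.04 (SE 0.28), and a second probe gave 0.19. Pparg, best known from adipocytes and macrophages, was at 0.86, 0.39 and 0.15 in NTA rats and 0.19, 0.37 and 0.70 in vehicle rats, again with overlap and a difference of 0.05 (SE 0.22). Ppard, the widely expressed family member, differed by −0.11 (SE 0.21).

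Of 20 PPARA targets, 7 were above 0 and 13 below, with a median of −0.05 that ran from −0.22 to 0.07 with 1 array left out. Over all features 43.9% lay above 0. In limma 0 of the 20 passed. At an unadjusted p under 0.05 there were 1 higher and 2 lower, against 3.66% and 3.91% of all features. The fatty acid translocase Cd36 was at 4.58, 3.77 and 3.19 in NTA livers and 2.48, 2.11 and 2.39 in vehicle livers (difference 1.52, SE 0.34; limma adjusted p = 0.48), and its other probes gave 1.53 and 1.47. The mitochondrial dehydrogenase Acadm was at −0.28 (SE 0.11) and the lipid droplet protein Plin2 at −0.27 (SE 0.11). Cd36 is also carried by endothelial cells and macrophages, whose mean marker levels in each group are given above, and their part in its value was not tested.

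Hnf4a, which maintains hepatocyte identity, was at 0.12, −0.08 and −0.28 in NTA rats and 0.04, 0.25 and 0.06 in vehicle rats. NTA replicates 2 and 3 were below all vehicle rats, and NTA replicate 1 was not. The difference was −0.20 (SE 0.14, adjusted p = 0.79), and its other probes gave −0.34 and −0.32. It was −0.30 without NTA replicate 1, −0.13 without vehicle replicate 2 and −0.092 without NTA replicate 3. Of 15 HNF4A targets, 4 were above 0 and 11 below, with a median of −0.11. Over all features 43.9% lay above 0. In limma 0 of the 15 passed or had an unadjusted p under 0.05, against 7.57% of all features at that unadjusted p. The list's smallest p values belonged to the sterol hydroxylase Cyp27a1 at 0.24 (SE 0.12; 0.15 without vehicle replicate 3) and the protease inhibitor Serpina1 at −0.16 (SE 0.10). The hepatocyte marker list, which shares Ttr, Tf and Serpina1 with the HNF4A targets, had 1 of 10 genes above 0.

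The retinoid receptors and their RXR partners were close to 0 apart from Rxra, the most common RXR of the liver and the partner of PPAR, LXR, FXR, CAR and PXR. Rxra was at −0.17, −0.21 and −0.39 in NTA rats and at −0.70, −0.55 and −0.38 in vehicle rats. NTA replicates 1 and 2 were above all vehicle rats, and NTA replicate 3 was level with vehicle replicate 3. Its difference of 0.29 (SE 0.13; limma, unadjusted p = 0.060, adjusted p = 0.68) did not pass and rests on a single probe. Rxrb differed by 0.01 (SE 0.11) and Rxrg by −0.05 (SE 0.18). Rxrg, better known from muscle and brain, was well above background on all 6 arrays with each of its 3 probes. Rara and Rarg, receptors for all-trans retinoic acid, differed by 0.06 (SE 0.12) and 0.18 (SE 0.14).

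Of the lists of targets and related genes, that of retinoic acid was the 1 with a gene past the threshold. Cyp26a1, the P450 that breaks down retinoic acid, rose to −1.02, −0.997 and −0.944 in NTA livers against −2.44, −2.52 and −2.44 in vehicle livers (difference 1.48, SE 0.09; limma adjusted p = 0.010), and with normexp the difference was 0.91. That call was lost whenever 1 array was left out (limma adjusted p = 0.060 to 0.13), with scan day as a block (0.077) and with the replicate number as a block (0.29), while the difference stayed between 1.45 and 1.50 in those fits. Its relative Cyp26b1 was at −0.78, −0.41 and −1.26 in NTA rats and −4.22, −2.71 and −2.25 in vehicle rats. The groups did not overlap, but the vehicle rats were widely spread, and the difference of 2.24 (SE 0.51; limma adjusted p = 0.48) did not pass. Of the 10 tested genes 6 were above 0, against 43.9% of all features, and their median was 0.11.

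Among the thyroid hormone receptors, Thra differed by 0.03 (SE 0.19). Its gene overlaps Nr1d1 by 1061 bases on chromosome 10 in the RefSeq annotation. Thrb, the main thyroid hormone receptor of the liver, was well above background in only 2 rats of each group and was not tested. Its values were −4.58, −4.43 and −5.85 in NTA rats and −4.86, −5.59 and −4.73 in vehicle rats. Of 9 tested thyroid hormone targets, 8 were above 0, against 43.9% of all features. Their median was 0.12, which was 0.00 without vehicle replicate 3. Limma passed 0 of them, and 0 reached an unadjusted p under 0.05, against 7.57% of all features. The smallest p values were those of the carnitine transferase Cpt1a at 0.45 (SE 0.28) and the transcription factor Klf9 at 0.34 (SE 0.32). With 1 array left out Cpt1a ran from 0.285 (NTA replicate 2) to 0.79 (NTA replicate 1), and Klf9 from 0.14 (vehicle replicate 1) to 0.63 (NTA replicate 2).

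The clock receptors REV-ERB alpha (Nr1d1) and REV-ERB beta (Nr1d2) are heme-binding repressors that swing daily and hold down Bmal1 and Npas2. Nr1d1 was at −0.88, −0.99 and −0.50 in NTA rats and −0.97, −1.10 and −0.37 in vehicle rats. Replicate 3 was the high rat in both groups, and the difference was 0.02 (SE 0.23). Nr1d2 was at −3.17, −3.84 and −3.72 in NTA rats and −4.77, −4.98 and −3.22 in vehicle rats. Vehicle replicate 3 was just below the highest NTA rat, while the other vehicle rats were lower than all NTA rats. The difference was 0.75 (SE 0.47; limma adjusted p = 0.76). It was 1.30 without vehicle replicate 3 and 0.42 without vehicle replicate 2, and with normexp it was 0.10. The probe of Nr1d2 is dim, and was well above background in 3 of 3 NTA rats and 2 of 3 vehicle rats.

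Of 12 other clock genes tested, 4 were above 0 and 8 below, with a median of −0.26, and over the leave-outs that median ran from −0.31 to −0.14. Over all features 43.9% lay above 0, with a median of −0.03. In limma 0 of the 12 passed, and 3 had an unadjusted p under 0.05, all lower with NTA. Of all features 7.57% had such a p (3.91% lower). Npas2, a partner of BMAL1, was at 0.01, −0.30 and 0.37 in NTA livers and 1.11, 1.01 and 0.51 in vehicle livers (difference −0.85, SE 0.23; limma adjusted p = 0.52). Its other probes gave −1.32 and −0.19. Bmal1, the core activator of the clock, was at 1.76, 1.81 and 1.94 in NTA livers and 2.11, 2.27 and 2.02 in vehicle livers (difference −0.30, SE 0.12; limma adjusted p = 0.63), and its second probe gave −0.32. The clock output factor Dbp was at −0.36 (SE 0.15, adjusted p = 0.66), with −0.14 to −0.23 from its other 3 probes, and was −0.24 without NTA replicate 3. Vehicle replicate 3 was the vehicle rat with the highest Nr1d1 and Nr1d2 and the lowest Bmal1 and Npas2. The NTA rats did not share this order. Among them replicate 3 had the highest Nr1d1 together with the highest Bmal1 and Npas2. NTA replicate 1 had the highest Nr1d2 and the lowest Bmal1, with Npas2 in the middle. The labels give a light cycle but no hour of killing, so the part of the time of day was not tested. Vehicle replicate 3 had a slide and scan day of its own. Their part in its values cannot be told apart from that of the rat itself.

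**Figure D4:**
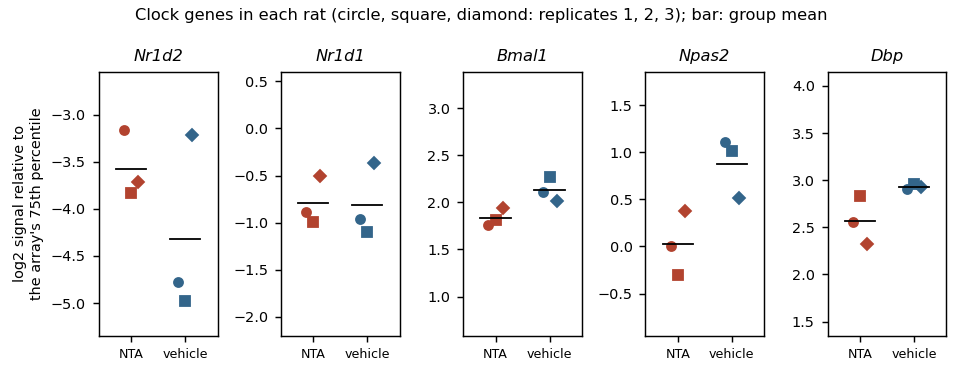
Values of each rat for the REV-ERB receptors Nr1d2 and Nr1d1 and for Bmal1, Npas2 and Dbp on the log2 scale relative to the array's 75th percentile, with NTA (red) left of vehicle (blue), circles, squares and diamonds for replicates 1, 2 and 3, and bars at group means. Bmal1, Npas2 and Dbp did not overlap between groups, Nr1d1 and Nr1d2 did, and none passed the adjusted threshold. Bmal1, Npas2 and Dbp were named for an unadjusted limma p under 0.05, and the groups did not overlap for 13.6% of all features.

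Of the steroid receptors, Nr3c1, the glucocorticoid receptor, was at 2.26, 2.39 and 2.14 in NTA rats and 2.20, 2.06 and 2.18 in vehicle rats. The groups overlapped, with a difference of 0.12 (SE 0.11, 95% interval −0.15 to 0.39), and its other probes gave 0.01 and −0.18. Nr3c2, the mineralocorticoid receptor, differed by −0.06 (SE 0.15) on its bright probe, while its other 2 probes were not well above background on any array. Esr1, the estrogen receptor alpha, was dim, and was well above background in 1 of 3 NTA rats and 3 of 3 vehicle rats. Its values were −5.32, −3.79 and −5.74 in NTA rats and −5.12, −3.72 and −4.44 in vehicle rats, with a difference of −0.52 (SE 0.57) that ran from −1.10 without NTA replicate 2 to −0.13 without NTA replicate 3. Pgr, the progesterone receptor, was not well above background with either probe on any array. Esrra, an orphan receptor of mitochondrial gene programmes, differed by −0.04 (SE 0.12).

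Of 15 glucocorticoid receptor targets, 8 were above 0 and 7 below, with a median of 0.02 that ran from −0.33 to 0.22 over the leave-outs. In limma 0 passed. At an unadjusted p under 0.05, which 7.57% of all features had, there was 1, the iron-siderophore binder and acute phase protein Lcn2. It was at −1.57, −1.42 and −0.48 in NTA rats and −2.49, −1.71 and −2.39 in vehicle rats (difference 1.05, SE 0.34; limma adjusted p = 0.57).

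The NR4A receptors are immediate-early genes that appear within minutes of a stimulus. Nr4a1 was at −1.35, −1.23 and −0.92 in NTA rats and −0.75, −1.20 and −2.26 in vehicle rats. The NTA values lay inside the range of the vehicle rats, which was set by the low vehicle replicate 3. The difference was 0.24 (SE 0.38), and it was −0.19 without that rat. Nr4a2 differed by −0.15 (SE 0.20), with −0.25 from both other probes. Nr4a3 was well above background in 1 of 3 NTA rats and in 0 of 3 vehicle rats and was not tested. Of 13 other immediate-early genes, 8 were above 0 with a median of 0.05. Limma passed 0 and gave 1 an unadjusted p under 0.05, the RNA-decay factor Zfp36 at −0.89 (SE 0.28, adjusted p = 0.56). Over all features 43.9% lay above 0, and 7.57% had an unadjusted p under 0.05.

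The orphan repressors and the COUP family gave differences near 0 on their brightest probes. The testicular receptors Nr2c1 and Nr2c2 differed by 0.12 (SE 0.23) and 0.10 (SE 0.10). The COUP transcription factors Nr2f1 and Nr2f2, which venous endothelium is known to express, differed by −0.08 (SE 0.14) and −0.12 (SE 0.14). Of the endothelial markers 9 of 9 tested were above 0, the lowest Cdh5 at 0.007, with a median of 0.52. Of the stellate cell and fibroblast list 5 of 10 were above 0, with a median of −0.05, and of all features 43.9%. The part of these cell types in the 2 receptors was not tested. For Nr2f1 the 3 probes disagreed, the brightest at −0.08, a dimmer one at 0.39 and an untested one at 0.16. Nr2f6 differed by −0.04 (SE 0.11). One of its dimmer probes was at 0.71, 0.56 and 0.65 in NTA rats and 0.93, 0.79 and 0.93 in vehicle rats, which did not overlap (difference −0.24, SE 0.10), and the third gave 0.02.

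Coregulators are the proteins that nuclear receptors recruit. Of 15 tested, 6 were above 0 and 9 below, with a median of −0.04 and a range from −0.45 to 0.10. In limma 0 passed. At an unadjusted p under 0.05, which 7.57% of all features had, there was 1, the arginine methyltransferase coactivator Carm1. It was at −0.43, −0.53 and −0.53 in NTA livers and −0.17, −0.30 and −0.29 in vehicle livers (difference −0.24, SE 0.10; limma adjusted p = 0.65), and its second probe gave −0.37.

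**Figure D5:**
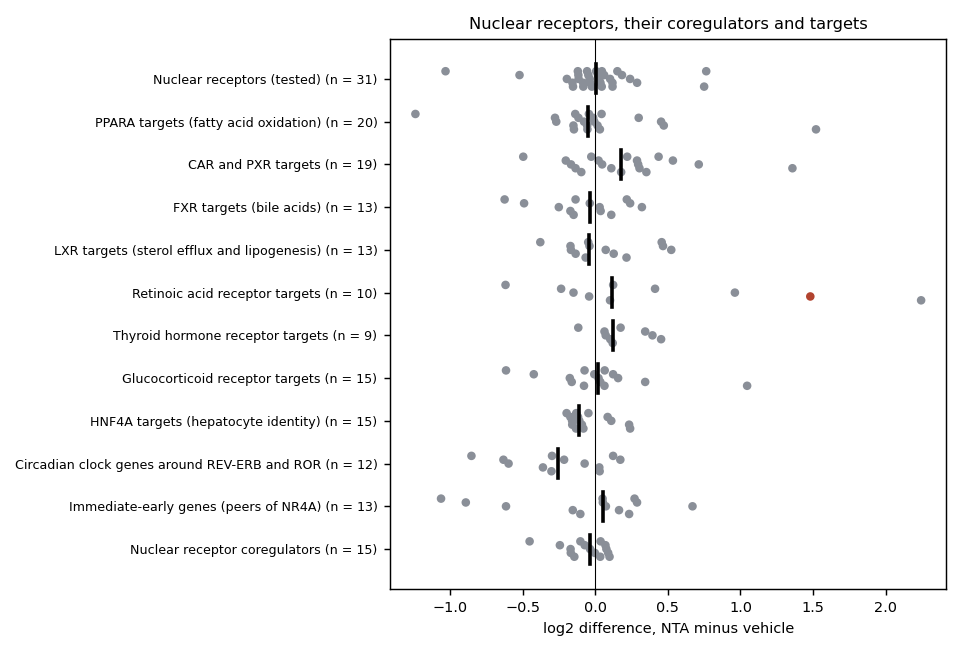
Log2 difference, NTA minus vehicle, of each tested gene (points) in the set of 31 nuclear receptors and in 11 lists of coregulators, targets and related genes, with black bars at the medians. The red point, Cyp26a1 among the retinoic acid targets, is the 1 gene shown whose limma adjusted p was under 0.05, and the receptors' median lies at 0.01.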

How the data were processed

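Liver RNA of 6 rats was measured on one-colour Agilent arrays of design 035170. The submitters' processing notes name Agilent Feature Extraction 10.7, the headers 10.7.1.1 and build rn4. The deposited scanner files hold each spot's processed signal, a background-subtracted linear intensity, per the file headers, beside median spot and background intensities and flags. The values of the table deposited by the authors are a ratio of that signal to the 75th percentile of its array, matched by 100.0% of probes within 0.0001 plus 0.2%.

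Of 62976 spots, 61657 non-control probes were used, and 1 to 14 values per array flagged as non-uniform were set to missing. Values were log2 processed signal minus the array's 75th percentile. Probes were named by unversioned accession through RefSeq (GRCr8), which gave 27460 probes 1 symbol and 34197 none. Testing required all 3 arrays of a group to be well above background, and the brightest tested probe stood for a gene, leaving 11251 genes with a name and 19102 probes without one. The test was limma 3.58.1 (R 4.3.3; lmFit, eBayes, 4 residual and 2.54 prior degrees of freedom), two-sided. Simulated arrays had the real feature means, the spreads after limma's moderation, independent normal noise and planted changes. On them 62% of features changed 2-fold and 94.6% of those changed 4-fold were called (100 of each in 5 datasets of 30353 features), with 4.6% of calls false. The real arrays need not have that noise or that many changes, so these shares are not their power. In the real fit 9 features passed, and Cyp26b1 with a difference of 2.24 did not. An exact permutation test of 3 rats against 3 cannot go below p = 0.1 and was not run. Precision is limited by the small number of arrays.

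The members and lists were chosen with earlier results of these data known. From each list, up to 4 genes with an unadjusted p under 0.05 are named, or else the 2 with the smallest p. One gene named by this rule is not reported here. Alternatives were normexp background correction (offset 50), other normalizations and filters, the mean of probes, and trend and robust. Slide, scan day and replicate number as blocks, and leaving out each array, were also run. Normexp used median intensities in place of the planned mean spot signals. Same-numbered arrays did not deviate together across groups (correlations of 0.17, −0.01 and −0.08), so replicate numbers were not taken as pairs.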

Additional observations from a re-analysis of the deposited data

How the results depend on the processing

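With every alternative 0 of the nuclear receptors passed in limma, and their median difference stayed between −0.03 and 0.02. The count of all features past the threshold was 9. It was between 2 and 10 when 1 array was left out, with 2 without NTA replicate 1, and 0 with the replicate block, which took the call from Cyp26a1. No difference that changed sign had passed the threshold. With normexp the log2 differences that changed sign were −0.0994 for Vdr, −0.0309 for Nr1h4, −0.0135 for Ppara, −0.0743 for Rxrb, 0.0167 for Rxrg, −0.0059 for Nr1d1, −0.0283 for Nr2c1 and −0.0804 for Nr2c2. With quantile normalization they were 0.01 for Esrra and 0.0029 for Nr2f6, and with the mean of probes −0.0169 for Nr3c1 and 0.15 for Nr2f1. With scan day as a block, in which vehicle replicate 3 has a day of its own, they were 0.03 for Ppard, 0.018 for Nr3c2, 0.0148 for Esrra and −0.19 for Nr4a1. Another probe gave 0.39 for Nr2f1, 0.0224 for Nr2f6 and −0.18 for Nr3c1. With 1 array left out, the differences that changed sign in at least 1 case ran from −0.15 to 0.20 for Pparg, −0.0458 to 0.0727 for Rxrb, −0.0807 to 0.19 for Thra, −0.0457 to 0.16 for Cyp2b1, −1.61 to 0.0249 for Cyp7a1, −0.22 to 0.26 for Ppara, −0.0985 to 0.0148 for Esrra, −0.44 to 0.34 for Vdr, −0.0625 to 0.0177 for Nr1h2, −0.13 to 0.24 for Nr1d1, −0.10 to 0.27 for Nr2c1, −0.17 to 0.0429 for Nr2f1, −0.0977 to 0.0068 for Nr2f6, −0.0183 to 0.15 for Rara, −0.24 to 0.0604 for Rxrg, −0.089 to 0.38 for Nr1h4, −0.20 to 0.018 for Nr3c2, −0.33 to 0.03 for Ppard and −0.19 to 0.57 for Nr4a1. The cause was not tested. Dim probes (Vdr, Esr1, Nr1d2 and Thrb) limit what can be said of those receptors.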
